A study of Mus musculus with 6 samples.

Results

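The response of stimulated fetal thymocytes to the compound 79-6, an inhibitor of the BTB domain of Bcl6, was measured against its vehicle, DMSO. The members were 4 of the 6 arrays in the series, picked by their titles: 2 arrays of the 79-6 group and 2 of the DMSO group. All cells came from thymi of Rag1-/- mouse embryos at E17.5 and were purified with magnets for Thy1.2. Both groups had received anti-CD3 for 40 h, one with 50 µM 79-6 and the other with DMSO alone. The other 2 arrays held fresh, unstimulated cells of the same genotype and age; they entered the fit for its estimate of spread and give starting levels here. The design text names fetal thymic organ cultures, in which stromal and myeloid cells of the thymus are present beside the thymocytes. The compound was tested at 1 dose and 1 time, its binding to Bcl6 was not measured on these arrays, and a deletion of Bcl6 was not among the groups. Nothing in the labels ties the 2 arrays of a group to separate litters or cultures, and p-values here therefore weigh the spread between arrays. That spread may be technical in part. Sex-linked transcripts, given below, differed between arrays of the same group and also between the 2 groups.

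Bcl6 is a transcriptional repressor of lymphocytes that recruits corepressors such as Bcor through its BTB domain. Rag1-/- thymocytes cannot assemble an antigen receptor and halt at the DN3 stage, where Notch1 signals sustain genes such as Dtx1, Il2ra, Hes1 and Ptcra. Antibody to CD3 drives such cells past that block, with loss of Notch target transcripts, proliferation and gain of Cd4 and Cd8. The aryl hydrocarbon receptor, AhR, is a ligand-activated transcription factor that pairs with Arnt and induces Cyp1a1, Cyp1b1, Ahrr and Tiparp after many planar aromatic compounds.

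Values are log2 of the deposited RMA intensities, and a difference is the mean of 79-6 minus the mean of DMSO on that scale, so that 1 corresponds to 2-fold. Of the genes with 1 symbol, 19937 were tested with limma over the 6 arrays, two-sided, and a gene was called at a Benjamini-Hochberg adjusted p under 0.05. Errors are SD for means (n = 2 in each group) and SE for differences, and every adjusted p printed is from limma. Median intensities of the 4 arrays lay between 99.3 and 102. Across genes the replicates correlated at 0.998 for DMSO and 0.997 for 79-6, against 0.993 to 0.995 between the groups. The labelled cell type was borne out by its defining transcripts. Thy1 stood at 13.20 and 13.26 with DMSO and at 13.05 and 13.08 with 79-6, Cd3e at 12.98 and 12.94 against 12.94 and 13.00, and Ptprc at 12.38 and 12.26 against 12.38 and 12.36. These 3 genes were not called. Of 11 T-lineage and leukocyte genes 1 was called, Cd7, which was higher by 1.11. At an unadjusted p under 0.05 (limma) 2 of the 11 were higher and 4 lower, so not all members were steady. The summed intensity of the 11 was 43725 and 44549 with DMSO and 44460 and 46270 with 79-6.

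Sex-linked transcripts differed between replicates and also between the groups. Xist, transcribed from the inactive X chromosome of females, was chosen for description after its values were seen, as were the 3 Y-linked genes beside it. Xist stood at 13.16 and 12.65 with DMSO and at 5.71 and 11.95 with 79-6. Eif2s3y stood at 6.78 and 9.40 with DMSO against 10.55 and 9.85, Kdm5d at 6.72 and 8.63 against 9.61 and 8.89, and Uty at 6.78 and 8.77 against 9.61 and 9.05. Replicate 1 of 79-6 was the lowest of the 6 arrays for Xist, and replicate 1 of DMSO lowest for the Y-linked genes. None of the 4 genes was called: the difference of Xist was -4.07 ± 1.67 (SE, adjusted p = 0.23). The groups did not overlap for any of the 4: both 79-6 arrays were lower for Xist and higher for the Y-linked genes. The mix of embryo sexes may thus differ between the groups. Its part in the results below was not tested and cannot be told apart from that of the compound.

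Across all genes 869 (4.36%) were called, 475 higher (2.38%) and 394 lower (1.98%) with 79-6. Most changes were small: the median size over called genes was 0.52, or 1.43-fold, and the smallest was 0.32. The larger ones were mostly rises. At least 2-fold, 68 genes were higher (0.341%) and 13 lower (0.0652%). An unadjusted p under 0.05 was found in 4079 of the 19937 genes, and unadjusted counts of the lists below stand beside that number. Differences were above 0 in 55.2% of all genes, the share to set beside counts of list members above or below DMSO. The arrays of the groups did not overlap in 9772 genes (49.0%), so the lack of overlap by itself sets few genes apart with 2 arrays a group. Which direction held more calls depended on the settings: with the trend and robust settings of limma it was 811 higher and 912 lower. In a fit of every probe set, in place of 1 per gene, 88 were called, 60 higher and 28 lower. The number of genes called also hung on single arrays. It was 113 without DMSO replicate 1, 93 without DMSO replicate 2, 661 without 79-6 replicate 1, 127 without 79-6 replicate 2 and 631 without either fresh array. Each such fit leaves 1 array in a group, whose spread is assumed to be like that of the other groups. A lone fresh array adds nothing to the estimate of spread. The fits without either fresh array therefore equal each other and the fit of the 4 stimulated arrays alone, and the 6 fits are not all distinct. Of the 869 genes, 70 were called in each of the 6 fits made with 1 array removed.

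**Figure D1:**
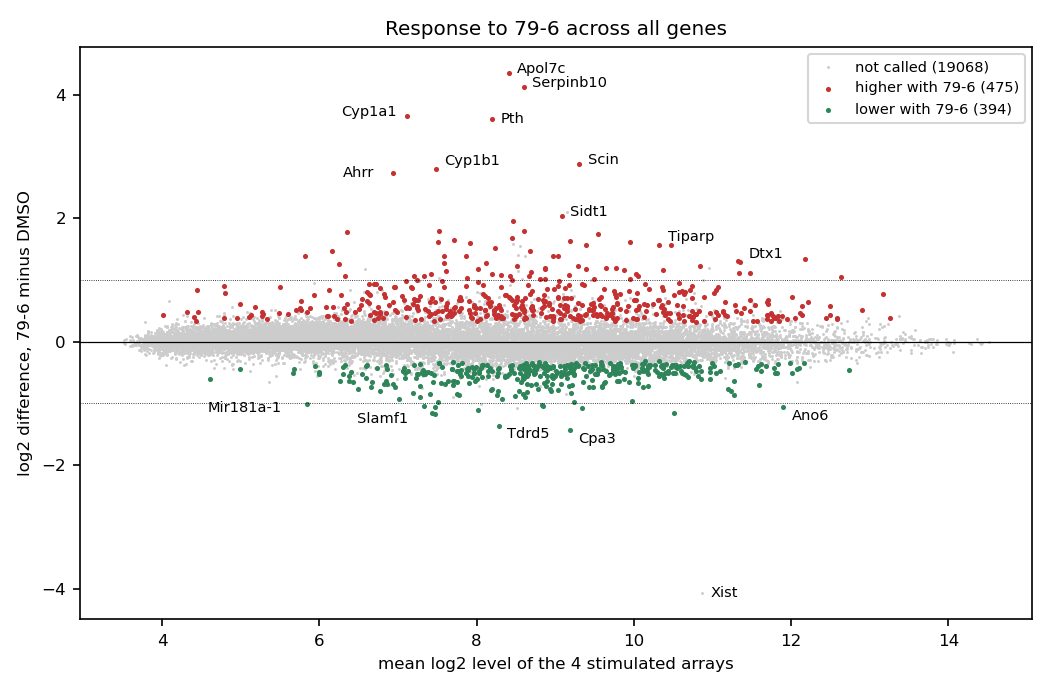
Each point is 1 of 19937 genes: the horizontal axis is its mean log2 level over the 4 stimulated arrays and the vertical axis the log2 difference, 79-6 minus DMSO. Red points are the 475 genes called higher, green points the 394 called lower, and dotted lines mark 2-fold; the largest called differences are rises, and the lowest point, Xist, was not called.

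Markers of myeloid cells moved with the compound. Of 23 measured macrophage and dendritic cell markers 20 were above DMSO, against 55.2% of all genes. Their median difference was 0.57 against 0.02 over all genes. Of the 23, 5 were called higher, against 2.38% of all genes: Msr1 (1.16), Itgax (1.14), C1qa (0.98), H2-Aa (0.72) and Cd86 (0.69). The summed intensity of the 23 was 23332 and 25894 with DMSO and 33030 and 36188 with 79-6, against 10472 and 14749 in fresh cells. The general macrophage genes Lyz2 (0.26 ± 0.22, SE), Csf1r (0.33 ± 0.19) and Adgre1 (0.57 ± 0.23) were not called. Markers of other non-T cells were mixed. The sum of 16 granulocyte markers went from 6377 and 6645 to 7981 and 10636, yet Mpo (-0.86), Prtn3 (-0.80) and Ctsg (-0.74), which encode azurophil granule enzymes, fell while the late granule collagenase Mmp8 rose by 1.30. The sum of 14 mast cell and basophil markers was 1843 and 2041 with DMSO and 1484 and 1643 with 79-6. The thymic epithelial sum, over 19 genes, was 5435 and 7589 against 6950 and 6768, and that of 17 mesenchymal and endothelial genes 14120 and 15813 against 18018 and 18838. In these last lists 1 gene each was called, lower, against 1.98% of all genes: Cldn4 (-0.46) and Pdgfrb (-0.37).

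In the remaining marker lists, Cd79b (0.50) was called higher among 11 B cell genes, whose sums were 2464 and 2568 against 3202 and 3467, and Hbb-bh1 (0.33) among 8 erythroid genes, at 657 and 647 against 652 and 777. Pf4 and Itgb3 were called among 6 platelet genes, at 1379 and 1293 against 2186 and 2597. Over all genes 2.38% were called higher. The calls of Cd79b, Hbb-bh1, Pf4, Itgb3, Cldn4 and Pdgfrb were lost without either DMSO array or 79-6 replicate 2 (adjusted p up to 0.222 for Pdgfrb). Without DMSO replicate 1, DMSO replicate 2, 79-6 replicate 1 and 79-6 replicate 2, in that order, 0, 3, 1 and 0 macrophage markers were called higher, and 10 without either fresh array. Granulocyte markers called numbered 0, 0, 3 and 0 higher and 0, 1, 1 and 0 lower without the same 4 arrays, so that without 79-6 replicate 1 more of them were higher than lower. When the fit took each array's median over the macrophage markers as a covariate, a choice made after the data were seen, 120 genes were called in all, 91 higher and 29 lower, and 115 of them were among the 869. A transcript that differs in this bulk RNA may reflect a different share of a cell type or a different level per cell, and the 2 cannot be told apart. What part the myeloid markers have in the results below was not tested, and calls under this covariate cannot decide it. Its values differed between the groups, at 9.35 and 9.5 with DMSO and 9.85 and 9.99 with 79-6. Within groups it differed most between the fresh arrays (7.91 and 8.83). A lost call can come with a difference that hardly moved, as for Ndrg1 (-0.96 without and -0.93 with it). It can also come with a smaller one, as for Serpinb2 (0.99 and 0.76).

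**Figure D2:**
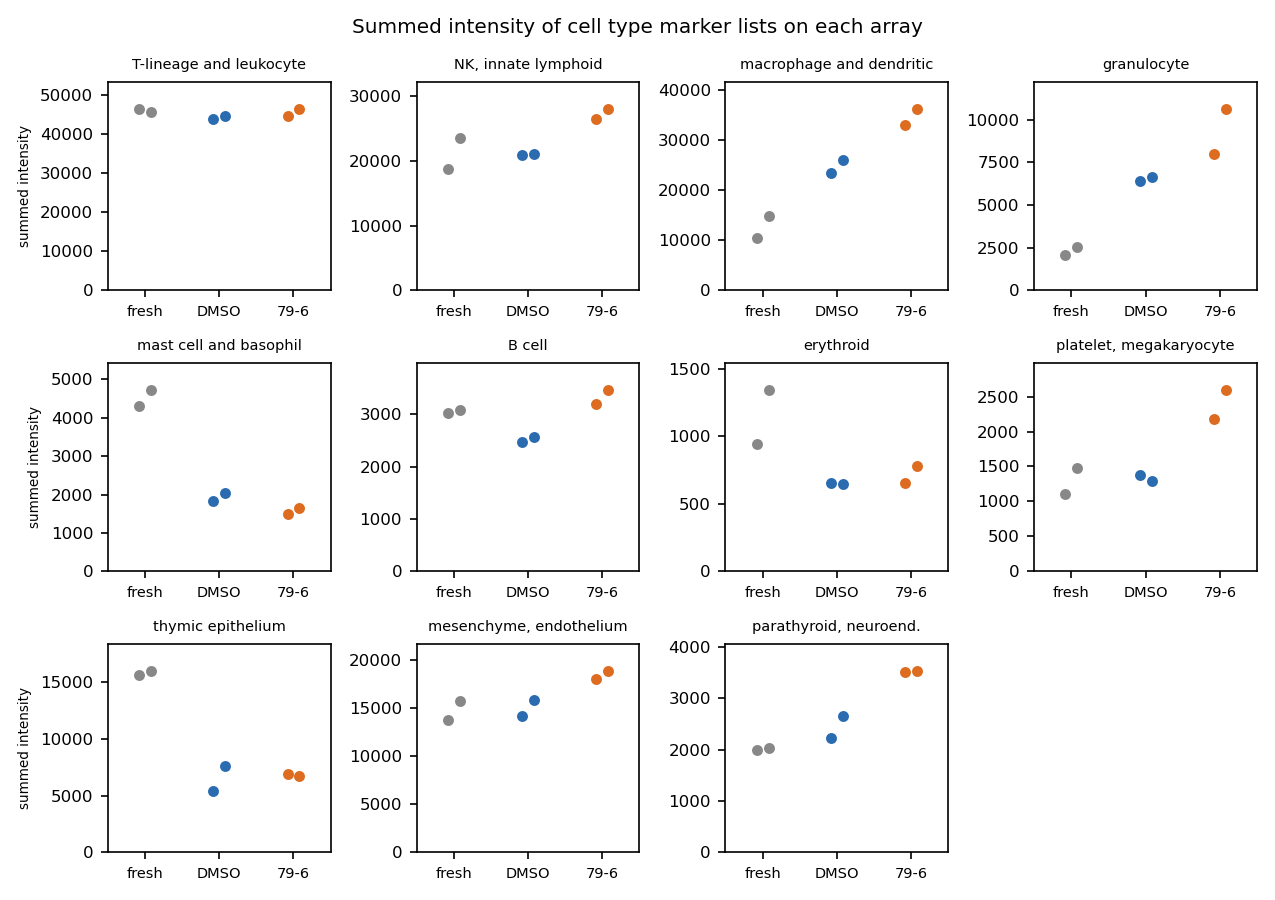
Summed linear intensity of each cell type marker list on each array (1 point per array; grey fresh, blue DMSO, orange 79-6; axes start at 0). The macrophage and dendritic sum lies between 33030 and 36188 with 79-6, above both DMSO arrays, while the T-lineage and leukocyte sum lies between 43725 and 46270 in the stimulated groups.

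Targets of AhR were among the strongest rises. Of 14 measured genes of the AhR list, 7 were called higher, against 2.38% of all genes, and the 10 induced targets had a median difference of 0.95. Of these 10, 1 was below DMSO, with a difference of -0.33 and an unadjusted p under 0.05 (limma). Cyp1a1, a monooxygenase that oxidises aromatic hydrocarbons, stood at 5.32 and 5.26 with DMSO and at 9.18 and 8.72 with 79-6; the fresh arrays, at 5.16 and 5.44, were as low as DMSO. Cyp1b1, its relative, stood at 5.98 and 6.17 against 9.06 and 8.70, and Ahrr, the repressor that AhR induces against itself, at 5.52 and 5.63 against 8.14 and 8.46. For both genes the compound's arrays lay above all 4 others by more than 2 log2 units. Tiparp, an ADP-ribosyltransferase that feeds back on AhR, stood at 9.54 and 9.54 against 11.16 and 11.06, a rise of 1.57 ± 0.08 (SE, adjusted p = 3.5e-04).

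Smaller rises were those of Serpinb2 (0.99, adjusted p = 0.0184), the lysophospholipid acyltransferase Lpcat2 (0.91, adjusted p = 0.0171) and the quinone reductase Nqo1 (0.74, adjusted p = 0.0378). The receptor and its partners were not called: Ahr differed by 0.09 ± 0.11 and Arnt by -0.02 ± 0.07 (SE). Cyp1a2 was not called either, at 4.86 and 4.88 against 4.94 and 5.06. The 4 strongest targets kept their call in each fit without 1 array and with the macrophage covariate, under which 5 of the 7 were called. Serpinb2, Lpcat2 and Nqo1 lost it without DMSO replicate 1 or 79-6 replicate 2 (adjusted p up to 0.132, 0.109 and 0.12), so that 4, 5, 5 and 4 were called without DMSO replicate 1, DMSO replicate 2, 79-6 replicate 1 and 79-6 replicate 2. Of 24 conjugation and efflux genes, Abcc4 was called higher (0.41) and Abcc5 lower (-0.52), against 2.38% and 1.98% of all genes. Both calls were lost without either DMSO array or 79-6 replicate 2 and with the macrophage covariate. The list's median was 0.06.

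The proximal promoters of the 4 strongest AhR targets are shown because the core of the AhR-Arnt site, GCGTG, can be looked for there; that of Serpinb10, the gene with the smallest p, is shown beside them. Each window runs from 250 bases before the start of the gene to 50 after it, 5′ to 3′ on the gene's strand, from RefSeq on GRCm38.p6. Capitals mark GCGTG, or CACGC, the same core read on the other strand.
Cyp1a1 (chr9:57697363-57697662, + strand): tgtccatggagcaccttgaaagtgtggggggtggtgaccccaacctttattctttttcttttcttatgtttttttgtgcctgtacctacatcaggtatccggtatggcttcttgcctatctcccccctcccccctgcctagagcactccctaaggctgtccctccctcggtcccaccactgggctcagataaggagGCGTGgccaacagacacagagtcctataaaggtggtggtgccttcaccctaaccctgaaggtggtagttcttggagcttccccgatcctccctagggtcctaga
Cyp1b1 (chr17:79715012-79715311, - strand): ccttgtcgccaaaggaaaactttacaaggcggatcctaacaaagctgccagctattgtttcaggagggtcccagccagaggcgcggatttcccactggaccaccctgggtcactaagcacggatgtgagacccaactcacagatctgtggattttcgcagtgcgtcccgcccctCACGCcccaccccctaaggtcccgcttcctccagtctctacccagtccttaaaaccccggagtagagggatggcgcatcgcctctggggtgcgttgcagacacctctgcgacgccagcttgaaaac
Ahrr (chr13:74292282-74292581, - strand): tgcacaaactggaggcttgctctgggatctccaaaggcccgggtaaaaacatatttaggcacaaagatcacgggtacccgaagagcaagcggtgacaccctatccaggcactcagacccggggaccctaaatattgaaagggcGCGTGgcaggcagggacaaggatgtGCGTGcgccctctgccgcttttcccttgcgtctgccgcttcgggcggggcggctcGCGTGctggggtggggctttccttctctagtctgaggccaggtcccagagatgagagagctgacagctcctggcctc
Tiparp (chr3:65528197-65528496, + strand): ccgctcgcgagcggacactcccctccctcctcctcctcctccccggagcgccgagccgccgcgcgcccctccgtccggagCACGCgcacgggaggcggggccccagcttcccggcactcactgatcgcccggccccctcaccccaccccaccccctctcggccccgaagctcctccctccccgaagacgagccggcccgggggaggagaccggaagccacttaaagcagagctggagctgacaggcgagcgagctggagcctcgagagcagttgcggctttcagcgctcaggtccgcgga
Serpinb10 (chr1:107528753-107529052, + strand): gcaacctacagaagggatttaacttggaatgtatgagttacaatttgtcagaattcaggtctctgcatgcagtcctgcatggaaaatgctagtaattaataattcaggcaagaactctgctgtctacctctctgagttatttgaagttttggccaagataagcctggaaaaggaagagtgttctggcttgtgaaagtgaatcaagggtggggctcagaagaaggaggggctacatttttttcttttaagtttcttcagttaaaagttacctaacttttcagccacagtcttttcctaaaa
The core lay 54 bases before the start of Cyp1a1, 76 before that of Cyp1b1, 170 before that of Tiparp, and 107, 82 and 27 before that of Ahrr. The letters are common. They occurred on either strand in 32.4% of 32851 promoter windows of this length and in 40.9% of the windows of genes tested. Among called genes the share was 39.5% for those higher and 49.9% for those lower, and 43.1% for those at least 2-fold higher. Of 8 windows of the 7 called AhR genes 5 held the core. The windows of Serpinb10 and Apol7c did not hold these letters. The canonical Bcl6 letters TTCCTNGAA, searched on both strands, were in 1.59% of all windows and 1.39% of those of genes tested. They were in 11 of 496 windows of called higher genes (2.22%) and 4 of 423 of called lower ones (0.946%). For genes at least 2-fold higher it was 2 of 58 windows (3.45%). These counts are small and the shares were not tested. The letters TGGGAA, also searched on both strands, were in 25.6% of all windows and 24.0% of those of genes tested, and in 23.0% for called higher, 23.2% for called lower and 15.5% for at least 2-fold higher genes. A match describes the letters and no binding was measured.

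The 20 largest rises had adjusted p-values from 4.5e-06 to 0.021. Apol7c, of the apolipoprotein L family, rose most: it stood at 5.89 and 6.59 with DMSO and at 10.46 and 10.71 with 79-6, a difference of 4.35 ± 0.22 (SE, 20.3-fold, adjusted p = 3.6e-04). Fresh cells lay between, at 8.14 and 8.44. Serpinb10, an intracellular serine protease inhibitor, stood at 6.45 and 6.62 against 10.71 and 10.60 (4.12 ± 0.08, adjusted p = 4.5e-06), with fresh cells lowest at 5.76 and 5.80. Scin, an actin-severing protein of the gelsolin family, stood at 8.07 and 7.67 against 10.80 and 10.67 (2.87 ± 0.13), close to the fresh arrays at 11.08 and 11.15. Sidt1, a transmembrane protein of the SID1 family linked to RNA transport, stood at 8.11 and 8.02 against 10.13 and 10.09.

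Immune mediators were among them. Il10, the anti-inflammatory cytokine, stood at 5.39 and 5.52 with DMSO and at 7.40 and 7.08 with 79-6, near its fresh level of 7.51 and 7.47. Il1r2, a decoy receptor for interleukin 1, rose by 1.79 and Alox5, the 5-lipoxygenase of leukotriene synthesis, by 1.80. Also in the group were the kinase gene Stk39 (1.74), the adhesion molecule Jaml (1.65), the phosphatase Acpp (1.62), the matrix protein Chad (1.61) and Cd160, a receptor of NK and T cells (1.59). The chemokine Pf4 (1.68) and the ADP receptor P2ry13 (1.63) lost their call without DMSO replicate 1, DMSO replicate 2 or 79-6 replicate 2 (adjusted p up to 0.111 and 0.0703).

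A pair of endocrine genes also rose. Pth, parathyroid hormone, stood at 5.44 and 7.33 with DMSO and at 10.00 and 9.99 with 79-6, and Chga, chromogranin A of secretory granules, at 6.91 and 8.05 against 9.41 and 9.47. The DMSO arrays were further apart for both genes than for most others. Pth lost its call without 79-6 replicate 2 (adjusted p = 0.0946) and Chga without either 79-6 array (up to 0.119), and neither was called with the macrophage covariate (0.0887 and 0.133). The other members of the list of parathyroid and neuroendocrine genes, 6 of 8, were not called, and over all genes 2.38% were called higher. Casr, the calcium receptor of the parathyroid, differed by 0.30 (adjusted p = 0.151). The list's summed intensity was 2234 and 2665 with DMSO and 3508 and 3540 with 79-6. Of the 20 largest rises 16 were called in each of the 6 fits without 1 array, and 18 with the macrophage covariate.

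The 20 largest falls were smaller, from -1.43 to -0.89, with adjusted p-values from 9.1e-04 to 0.0308. Cpa3, a carboxypeptidase of mast cells that early thymic progenitors also express, stood at 9.79 and 10.00 with DMSO and at 8.29 and 8.64 with 79-6 (-1.43 ± 0.13, adjusted p = 0.00363), below its fresh level of 11.45 and 11.56. Tdrd5, a Tudor domain gene of the germ line, stood at 8.96 and 8.97 against 7.74 and 7.46. Ano6, a phospholipid scramblase, stood at 12.32 and 12.53 against 11.38 and 11.35, which is the range of the fresh arrays (11.28 and 11.42). Il17rb, the receptor chain for interleukin 25, stood at 9.90 and 9.86 against 8.91 and 8.70, and Slamf1, a costimulatory receptor of the thymocyte surface, at 7.77 and 7.92 against 6.70 and 6.92. The compound's arrays were the lowest of the 6 for Cpa3, Tdrd5, Il17rb and Slamf1.

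Further falls were those of Camkv (-1.16), a kinase-like protein, 1700048O20Rik (-1.06), the coiled-coil gene Ccdc18 (-1.04) and the transglutaminase F13a1 (-0.89). Dgkeos (-1.16) and Dgke (-0.98) are listed as a gene and the transcript of its opposite strand, and how far their probes share signal is not known here. The falls of Tmem45a (-1.17), Slc7a11 (-1.11), Syt13 (-1.02), Ston1 (-0.98), Dgke, Ndrg1 (-0.96), Scara3 (-0.92) and Papss2 (-0.90) lost their call without DMSO replicate 2 (adjusted p up to 0.155 for Slc7a11 over the fits without 1 array). Those of Slc7a11, Dgke and Scara3 lost it also without DMSO replicate 1, those of Slc7a11 and Ndrg1 without 79-6 replicate 1, and those of Tmem45a, Slc7a11, Syt13, Ston1, Ndrg1 and Papss2 without 79-6 replicate 2. Of the 20 falls 11 were called in each of the 6 fits without 1 array, and 13 with the macrophage covariate.

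**Figure D3:**
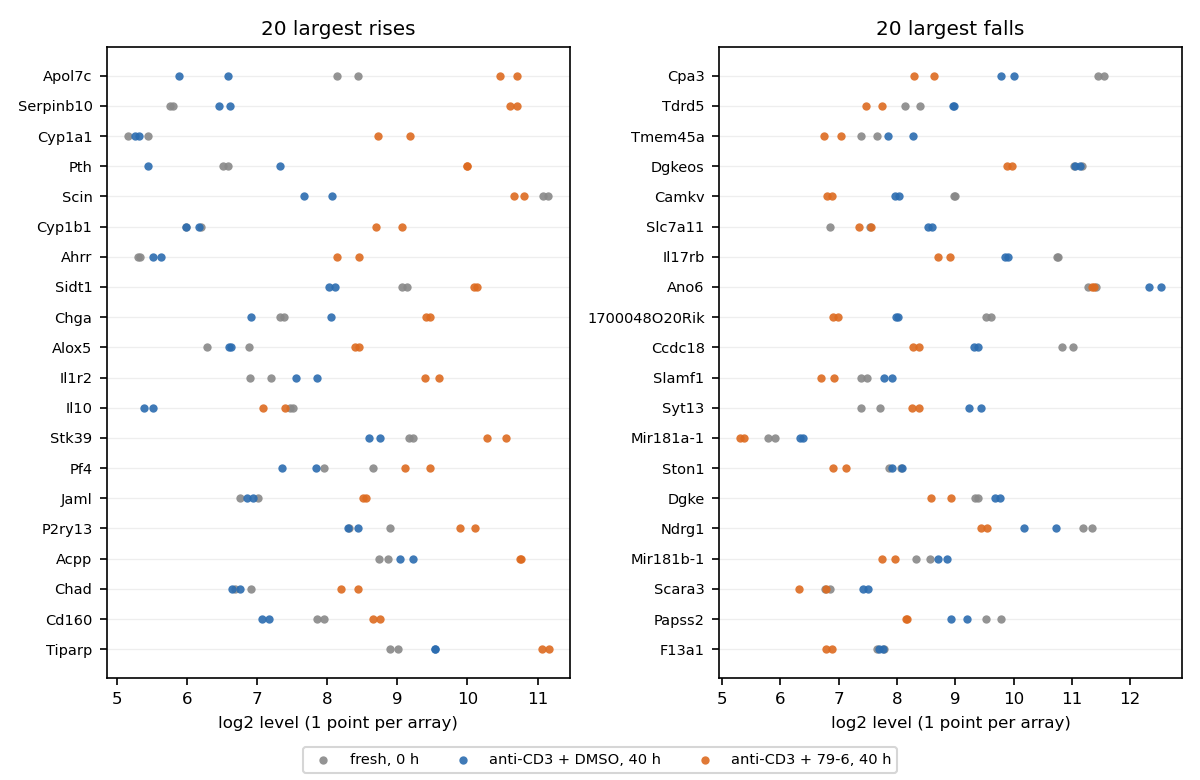
Log2 level of the 20 genes with the largest called rises (left) and the 20 with the largest called falls (right) on each array, 1 point per array: grey fresh, blue DMSO, orange 79-6. The orange points of Serpinb10, Cyp1a1, Cyp1b1 and Ahrr lie far from the other 4 arrays, those of Scin, Il10 and Ano6 lie near the fresh level, and the DMSO points of Pth are well apart at 5.44 and 7.33.

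The miRNA gene Mir181a-1 was also among the largest falls. It stood at 6.38 and 6.33 with DMSO and at 5.38 and 5.31 with 79-6 (-1.01 ± 0.08, SE, adjusted p = 0.00201), with fresh cells between at 5.79 and 5.90. Its neighbour Mir181b-1 stood at 8.86 and 8.71 against 7.97 and 7.74 (-0.93 ± 0.12, adjusted p = 0.0106). Mature miR-181a lowers phosphatases that restrain T cell receptor signals and is abundant in immature thymocytes. The sequences of the family are shown because its members differ in locus and not in seed: bases 2 to 8, in capitals, are the same in each (RefSeq, GRCm38.p6).
mmu-miR-181a-5p of Mir181a-1 (chr1:137966468-137966490, + strand): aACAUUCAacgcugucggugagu
mmu-miR-181b-5p of Mir181b-1 (chr1:137966650-137966673, + strand): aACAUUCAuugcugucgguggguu
mmu-miR-181c-5p of Mir181c (chr8:84178924-84178945, - strand): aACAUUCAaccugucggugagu
mmu-miR-181d-5p of Mir181d (chr8:84178759-84178781, - strand): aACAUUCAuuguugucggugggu
The other loci were not called. Mir181a-2 and Mir181b-2, which give the same mature forms from chromosome 2, differed by -0.26 ± 0.10 and -0.20 ± 0.09, and Mir181c and Mir181d by 0.12 ± 0.10 and 0.24 ± 0.11. Mir181a-1 kept its call in each fit without 1 array, while Mir181b-1 lost it without DMSO replicate 1, DMSO replicate 2 or 79-6 replicate 2 (adjusted p up to 0.0844); both were called with the macrophage covariate. Mature forms were not measured apart from their precursors on this array.

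Of 42 measured members of the Notch pathway 5 were called higher and 1 lower, against 2.38% and 1.98% of all genes, with a median of 0.08. Dtx1, a ubiquitin ligase and direct Notch target, stood at 10.69 and 10.72 with DMSO and at 12.04 and 11.96 with 79-6, a rise of 1.29 ± 0.07 (SE, 2.45-fold, adjusted p = 5.9e-04). The fresh arrays were slightly higher still, at 12.19 and 12.26. Il2ra, the alpha chain of the interleukin 2 receptor, stood at 11.88 and 11.82 against 12.47 and 12.38 and remained well under its fresh level of 13.82 and 13.77. Lfng, the fringe enzyme that tunes Notch for Delta ligands, rose by 0.82, Maml2, a coactivator of the Notch complex, by 0.45, and Dtx4 by 0.34, while Myc fell by 0.51.

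Other direct targets were not called. Hes1 stood at 9.15 and 9.19 against 9.35 and 9.14 (0.07 ± 0.09, SE), Ptcra at 9.93 and 10.03 against 10.06 and 9.99 (0.05 ± 0.08) and Nrarp at 7.34 and 7.56 against 7.50 and 7.57 (0.08 ± 0.10). Their arrays overlapped between the groups, and all were far below fresh cells, where Hes1 was 10.75 and 10.63 and Ptcra 11.87 and 11.80. Hey1 differed by -0.03 (adjusted p = 0.9), Heyl by 0.39 (0.0642), and the receptors Notch1 by 0.21 (0.159) and Notch3 by 0.28 (0.112). None of the 9 receptors and ligands was called (limma). Dtx1 kept its call in each fit without 1 array and was the 1 member called with the macrophage covariate. Lfng lost it without DMSO replicate 2 or 79-6 replicate 2 and Il2ra without either DMSO array (adjusted p up to 0.0787 and 0.0931), so that 2, 1, 3 and 2 members were called higher and 0, 0, 1 and 0 lower without DMSO replicate 1, DMSO replicate 2, 79-6 replicate 1 and 79-6 replicate 2.

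Genes of the DN3 stage and of earlier progenitors went both ways. Of 34, 6 were called higher and 3 lower, against 2.38% and 1.98% of all genes, with a median of 0.11. Dtx1 and Il2ra are in both lists. Kit, the stem cell factor receptor, stood at 7.80 and 7.98 with DMSO and at 8.92 and 8.98 with 79-6 (1.06 ± 0.09, adjusted p = 0.00314), below its fresh level of 9.48 and 9.62. Kit is also a mast cell marker, and the other marker called in that list, Cpa3, fell. Lmo2, a transcriptional cofactor of progenitors, stood at 8.48 and 8.62 against 9.39 and 9.43, and Mpzl2 (0.62) and the transcription factor Erg (0.51) rose less. The recombination genes fell: Dntt, terminal transferase, stood at 11.58 and 11.68 against 10.96 and 10.70, and Rag2 at 9.60 and 9.75 against 9.14 and 8.90. Fbp1 fell by 0.38. Rag1 signal differed by -0.28 (adjusted p = 0.0759), and the sources used here do not place its probes inside or outside the deleted part. Without DMSO replicate 1, DMSO replicate 2, 79-6 replicate 1 and 79-6 replicate 2, 3, 3, 5 and 4 were called higher and 0, 0, 1 and 1 lower, and with the macrophage covariate 4 higher.

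Genes gained at beta-selection and the DP stage included 5 of 30 called lower and 1 higher, against 1.98% and 2.38% of all genes. Their median was -0.02. Slamf1 led the falls, followed by the channel gene Aqp11 (-0.86), the CD5-like receptor Cd6 (-0.69), Arpp21 (-0.64) and Cd4 (-0.48). Cd6 stood at 9.39 and 9.44 against 8.77 and 8.67, and its fresh level was 6.70 and 6.80. Cd4 stood at 10.54 and 10.81 against 10.22 and 10.16, with fresh cells at 7.48 and 7.41, and its call (adjusted p = 0.0461) was lost in each fit without 1 array (up to 0.193). The coreceptor genes Cd8a, at 12.19 and 12.14 against 12.27 and 12.31, and Cd8b1, at 13.26 and 13.29 against 13.31 and 13.21, were not called, and neither were the 4 CD3 chain genes. Ccr7, a chemokine receptor of the thymic medulla, rose by 0.80, from 10.18 and 10.32 to 11.07 and 11.03. Slamf1 kept its call in each of the 6 fits; 2, 1, 4 and 2 members were called lower, and 0 higher in each case, without DMSO replicate 1, DMSO replicate 2, 79-6 replicate 1 and 79-6 replicate 2, and 3 lower with the macrophage covariate.

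Bcl6 mRNA itself was lower with the compound. It stood at 8.98 and 9.17 with DMSO and at 8.54 and 8.51 with 79-6, against 7.51 and 7.36 in fresh cells, a difference of -0.55 ± 0.09 (SE, 1.47-fold, adjusted p = 0.0251). The call was lost without either DMSO or either 79-6 array (adjusted p up to 0.147) and with the macrophage covariate (0.175). None of 9 corepressor genes measured was called by limma; Bcor differed by -0.24 (adjusted p = 0.103) and Hdac3 by -0.02 (0.888). Transcript level says nothing of the activity of the protein, which 79-6 is used to block.

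Of 29 genes described as Bcl6 targets in lymphocytes, 8 were called higher and 2 lower, against 2.38% and 1.98% of all genes. Their median was 0.33 against 0.02 over all genes. This list, like the others, was chosen with earlier results of these data known, so these values describe it and do not test it. Each called member is also counted in another list below. S1pr1, the receptor that guides exit from the thymus, stood at 10.23 and 10.22 with DMSO and at 11.48 and 11.42 with 79-6 (1.22 ± 0.13, adjusted p = 0.00569), above fresh cells at 7.75 and 8.16. Its activator Klf2 stood at 9.06 and 8.91 against 10.07 and 9.94. Socs2, a brake on cytokine signals, stood at 7.45 and 7.40 against 8.54 and 8.66, below its fresh level of 9.56 and 9.60. Runx3 (0.77), Id2 (0.65), Cish (0.50), Tbx21 (0.49) and Irf4 (0.48) followed. Pdcd1, the inhibitory receptor PD-1, fell from 8.68 and 8.71 to 7.85 and 7.82, its fresh level being 7.77 and 7.82, and the checkpoint kinase Chek1 fell by 0.54. Prdm1 (0.36, adjusted p = 0.139), Cd69 (0.56, 0.123), Gpr183 (0.37, 0.0698) and Ccnd2 (0.34, 0.103) were not called. Socs2, Klf2, Runx3 and Pdcd1 kept their calls in each fit without 1 array. Without DMSO replicate 1, DMSO replicate 2, 79-6 replicate 1 and 79-6 replicate 2, 3, 3, 7 and 4 were called higher and 1, 1, 2 and 1 lower, and with the macrophage covariate 4 and 1.

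**Figure D4:**
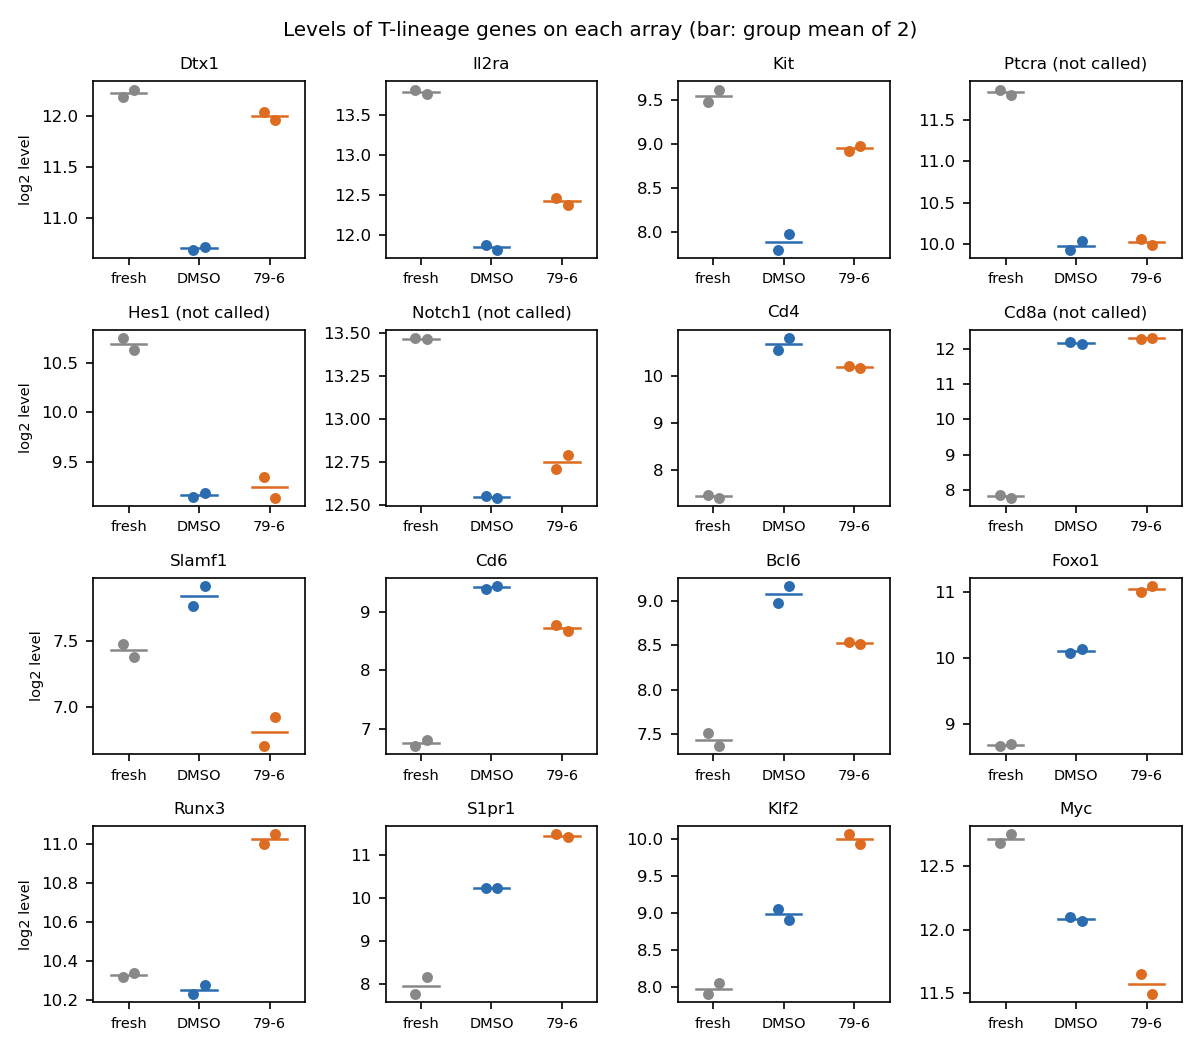
Log2 level of 16 genes of the Notch, DN3, DP and Bcl6-related lists on each array (1 point per array, bar at the mean of the 2; grey fresh, blue DMSO, orange 79-6; vertical axes differ between panels and do not start at 0). With 79-6 Dtx1 lies at 11.96 to 12.04, just under its fresh level of 12.19 to 12.26, whereas the points of Ptcra and Hes1 overlap with those of DMSO.

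T-lineage transcription factors divided, with 5 of 35 called higher and 4 lower, against 2.38% and 1.98% of all genes. Foxo1, which activates Klf2, Il7r and other genes of quiescent lymphocytes, stood at 10.07 and 10.13 with DMSO and at 11.00 and 11.09 with 79-6 (0.95 ± 0.07, adjusted p = 0.00213). Runx3, a factor of cytotoxic lineages, stood at 10.23 and 10.28 against 11.00 and 11.05, and Id2, an inhibitor of E proteins, at 11.37 and 11.37 against 11.93 and 12.11. Ikzf2 (0.46) and Zbtb16 (0.43), which marks innate-like lymphocytes, rose less. The repressor Gfi1 (-0.52), the chromatin organiser Satb1 (-0.46), Zeb1 (-0.38) and Myb (-0.35) fell. Gata3 differed by -0.32 (adjusted p = 0.0642) and Bcl11b by -0.20 (0.184). Foxo1 and Runx3 kept their calls in each of the 6 fits and were the 2 called with the macrophage covariate; 2, 2, 5 and 2 were called higher and 0, 0, 1 and 0 lower without DMSO replicate 1, DMSO replicate 2, 79-6 replicate 1 and 79-6 replicate 2.

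Of 35 genes of signal transduction from the receptor, 2 were called higher, against 2.38% of all genes: Malt1 (0.46) and the kinase Prkcq (0.39). At an unadjusted p under 0.05 (limma), 10 were higher and 5 lower, while 4079 of all 19937 genes passed in either direction. Both calls were lost in each fit without 1 array (adjusted p up to 0.153 and 0.155) and with the macrophage covariate. None of 14 proximal kinases and adaptors was called by limma; Zap70 differed by 0.10 and Lat by -0.05. Among 32 immediate-early and activation genes, with a median of 0.24, 5 were called higher and 1 lower, against 2.38% and 1.98% of all genes. Pdcd1 fell, and the rises were those of Fosb (0.73), Il2ra, Icos (0.51), Tnfrsf9 (0.50) and Irf4. These rises numbered 0, 0, 2 and 2 without DMSO replicate 1, DMSO replicate 2, 79-6 replicate 1 and 79-6 replicate 2, and 0 with the macrophage covariate.

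Of 66 cytokines, their receptors and signal regulators 14 were called higher and 2 lower, against 2.38% and 1.98% of all genes, with a median of 0.19. Among cytokines, Tgfb3 stood at 6.75 and 7.15 with DMSO and at 8.31 and 8.15 with 79-6 (1.28 ± 0.14, adjusted p = 0.00721), beside Il10 above, and Ltb rose by 0.34. Among receptors, after Il1r2, the calls were Il2rb (0.85), Il18rap (0.67), Il21r (0.57), Il6ra (0.53), Il12rb1 (0.38) and Il12rb2 (0.34), while Il17rb and Il9r (-0.46) fell. Among regulators Socs2, Socs3 (0.71), Pim2 (0.56) and Cish, which cytokine signals through Stat proteins induce, rose. Il10, Il1r2, Tgfb3, Socs2 and Il17rb kept their calls in each fit without 1 array. Without DMSO replicate 1, DMSO replicate 2, 79-6 replicate 1 and 79-6 replicate 2, 4, 5, 6 and 4 members were called higher and 1, 1, 2 and 1 lower; with the macrophage covariate it was 4 and 1.

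Homing and egress receptors were called higher in 8 of 31 cases, against 2.38% of all genes, with a median of 0.28. The integrin chains that pair to bind E-cadherin rose together: Itgae stood at 8.76 and 8.85 with DMSO and at 10.11 and 9.84 with 79-6, and Itgb7 at 9.06 and 9.03 against 10.21 and 10.29. The chemokine receptor Cxcr6 stood at 8.07 and 8.18 against 9.19 and 9.20, and S1pr4 (0.60) and Ccr8 (0.58) rose beside S1pr1, Klf2 and Ccr7. Itgae and Klf2 kept their calls in each of the 6 fits; 2, 2, 6 and 3 members were called without DMSO replicate 1, DMSO replicate 2, 79-6 replicate 1 and 79-6 replicate 2, and 6 with the macrophage covariate. Of 20 chemokines, Cxcl10 (0.79) and Ccl17 (0.54) were called higher, but none in the 4 fits that left out a DMSO or 79-6 array or with that covariate.

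NK and innate lymphoid genes had 7 of 20 called higher and 1 lower, against 2.38% and 1.98% of all genes, with a median of 0.49. Their summed intensity was 20833 and 21026 with DMSO and 26533 and 28047 with 79-6. Nkg7, a protein of cytotoxic granules, stood at 10.68 and 10.88 against 11.93 and 11.87 (1.12 ± 0.09, adjusted p = 0.00269), at its fresh level of 11.99 and 12.13. Gzmb, granzyme B, stood at 8.32 and 7.93 against 9.26 and 9.25, whereas Gzma, granzyme A, fell from 12.28 and 12.26 to 11.79 and 11.73. Klrd1, the NK receptor CD94, rose by 0.97. T-lineage cells express several of these genes too, among them Id2, Il2rb, Tbx21 and Zbtb16. Nkg7 kept its call in each of the 6 fits; 2, 1, 4 and 1 were called higher and 0, 0, 1 and 0 lower without DMSO replicate 1, DMSO replicate 2, 79-6 replicate 1 and 79-6 replicate 2, and 2 higher with the macrophage covariate. Cd7, a surface protein of early T and NK cells, stood at 10.94 and 10.91 against 11.99 and 12.07 (1.11 ± 0.15, adjusted p = 0.0124; up to 0.0957 without DMSO replicate 1, DMSO replicate 2 or 79-6 replicate 2).

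Interferon-stimulated genes were above DMSO in 26 of 26 cases, against 55.2% of all genes, with a median of 0.42. Of the 26, 11 were called higher, against 2.38% of all genes. Ifit3, which inhibits translation of viral RNA, stood at 10.34 and 10.02 with DMSO and at 10.90 and 11.06 with 79-6, against 11.46 and 11.89 in fresh cells. Cxcl10 stood at 9.85 and 9.44 against 10.39 and 10.48, and the antiviral enzyme genes Rsad2 (0.73) and Cmpk2 (0.71) and the interferon regulator Irf7 (0.59) rose. No member was called without DMSO replicate 1, DMSO replicate 2 or 79-6 replicate 2, where adjusted p-values reached 0.207 for Cxcl10, or with the macrophage covariate (limma); 8 were called without 79-6 replicate 1, and 22 had an unadjusted p under 0.05. In class I antigen processing, 3 of 11 were called higher, Psme2 (0.50), Psmb10 (0.45) and Tapbp (0.39), and 0, 0, 2 and 0 without DMSO replicate 1, DMSO replicate 2, 79-6 replicate 1 and 79-6 replicate 2, and 0 with the macrophage covariate.

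Gimap genes, which encode GTPases that support lymphocyte survival, were above DMSO in 8 of 8 cases, against 55.2% of all genes. In 5 they were called higher, against 2.38% of all genes. Gimap3 stood at 8.29 and 8.40 with DMSO and at 9.75 and 9.71 with 79-6 (1.39 ± 0.09, adjusted p = 9.1e-04), far above its fresh level of 5.36 and 5.54. Gimap4 (0.68), Gimap8 (0.55), Gimap6 (0.44) and Gimap5 (0.41) rose less. Probes of this family can read related members. Gimap3 alone kept its call without DMSO replicate 1, DMSO replicate 2, 79-6 replicate 1 or 79-6 replicate 2 and with the macrophage covariate.

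Genes of proliferation were mostly below DMSO, by small amounts, while 55.2% of all genes were above it. Of 43 replication and S phase genes 43 were below DMSO, with a median of -0.35, and 19 were called lower, against 1.98% of all genes. Gins1, part of the replicative helicase, stood at 10.01 and 9.90 with DMSO and at 9.36 and 9.13 with 79-6 (-0.71 ± 0.09, SE, adjusted p = 0.0126). Ccne2, the cyclin of S phase entry, stood at 10.61 and 10.69 against 10.23 and 9.98, and Cdc6, which loads the helicase, at 9.01 and 8.98 against 8.53 and 8.39. The polymerase genes Pola1 (-0.51) and Pole (-0.50), the primase Prim1 (-0.50), Rrm2 (-0.35) and Tyms (-0.38) were among the others. Of 21 DNA repair and checkpoint genes 21 were below DMSO, with the same median, and 8 were called: Lig4 (-0.72), the ligase of end joining, Brca2 (-0.59), Exo1 (-0.55), Chek1 (-0.54), Brca1 (-0.52), Fancd2 (-0.51), Fanci (-0.47) and Blm (-0.45). Lig4 stood at 10.49 and 10.59 against 9.92 and 9.74.

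Mitotic genes were below DMSO in 33 of 35 cases with a median of -0.27. Called lower, against 1.98% of all genes, were 4: Cenpe (-0.40), Ttk (-0.40), Anln (-0.37) and Kif20a (-0.33). Among 15 D cyclins, their kinases and inhibitors, Cdkn1c (-0.48), Cdk2 (-0.37) and Cdk6 (-0.33) were called lower, and Cdkn1b differed by -0.07 ± 0.11. None of these replication, repair and mitotic genes was called without DMSO replicate 1, DMSO replicate 2 or 79-6 replicate 2, except 1 repair gene in the last of these, or with the macrophage covariate; without 79-6 replicate 1 it was 11 replication, 1 mitotic and 9 repair genes, and without either fresh array 6, 0 and 8. The 3 calls of the D cyclin list became 1 higher and 0 lower without 79-6 replicate 1, 1 lower without either fresh array, and 0 in the other fits without 1 array and with the macrophage covariate. At an unadjusted p under 0.05 (limma), 39 replication, 28 mitotic and 17 repair genes were lower. Over all 19937 genes 4079 passed in either direction. With the replicate number as a block 13 replication genes were called.

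While 55.2% of all genes were above DMSO, hypoxia targets and glycolytic enzymes were mostly below it, in 28 of 30 cases. Of these genes, whose median was -0.24, 6 were called lower, against 1.98% of all genes. They were 5 of 14 hypoxia targets (median -0.34) and 1 of 16 glycolytic enzymes (median -0.18), a difference that was not tested. Ndrg1, induced by hypoxia, stood at 10.18 and 10.73 with DMSO and at 9.44 and 9.54 with 79-6. Vegfa, the vascular growth factor, stood at 9.25 and 9.61 against 8.65 and 8.64, and Egln3, an oxygen-sensing hydroxylase, at 11.46 and 11.72 against 10.79 and 10.83. Bnip3 (-0.65), Pfkp (-0.47) and Egln1 (-0.41) were the others. DMSO replicate 2 was the highest array for Ndrg1, Vegfa and Egln3 among the stimulated ones. The calls numbered 4, 0, 1 and 0 without DMSO replicate 1, DMSO replicate 2, 79-6 replicate 1 and 79-6 replicate 2, 3 without either fresh array, and 0 with the macrophage covariate; 16 had an unadjusted p under 0.05.

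Among other growth genes, Myc stood at 12.10 and 12.07 with DMSO and at 11.65 and 11.49 with 79-6 (-0.51 ± 0.08, adjusted p = 0.0215; up to 0.124 without 1 array) and was the 1 called member of 38 ribosome biogenesis and Myc genes. The 28 nucleolar and polymerase I genes among them had a median of -0.18. The transporter genes Slc16a1 (-0.55), for lactate, and Slc29a1 (-0.53), for nucleosides, fell in a list of 14 whose median was -0.27. Over all genes 1.98% were called lower. None was called by limma among 35 oxidative phosphorylation genes (median -0.01; 0 at an unadjusted p under 0.05), 19 cytosolic ribosomal proteins (-0.02; 1), 20 cholesterol synthesis genes (-0.09; 6) or 16 genes of PPAR and fatty acid oxidation (0.01; 4), also in the fits without 1 array and with the replicate block. Over all 19937 genes 4079 had an unadjusted p under 0.05 (limma). Of 16 fatty acid synthesis genes and LXR targets, Mylip (0.41) was called higher and Acaca (-0.37) lower, against 2.38% and 1.98% of all genes. Calls of Slc16a1, Slc29a1 and Myc were lost without DMSO replicate 1, DMSO replicate 2 or 79-6 replicate 2, and those of Mylip and Acaca in each fit that left out 1 array; with the macrophage covariate none of these 5 was called.

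In lists of other stress programmes the calls numbered 1 each, and across all genes 4.36% were called. Of 23 Nrf2 targets and sensors 17 were above DMSO, against 55.2% of all genes. At an unadjusted p under 0.05 (limma) 8 of the 23 were higher and 1 lower. Nqo1, counted above with AhR, is not in this list. The 1 member called was the cystine transporter Slc7a11, and it was lower. It stood at 8.60 and 8.54 with DMSO and at 7.35 and 7.56 with 79-6 (-1.11 ± 0.20, adjusted p = 0.0308). Of 30 ATF4 and unfolded protein response genes Phgdh (-0.38) was called, of 13 heat shock genes Dnajb4 (-0.62) and of 25 p53 targets Pidd1 (-0.44), also lower. The medians of these lists, from -0.06 to 0.05, were near the 0.02 of all genes. Of 9 metal response genes Slc40a1, the iron exporter, rose by 1.22, and of 23 lysosome genes Atp6v0d1 by 0.32. These 6 calls were lost without DMSO replicate 2 or 79-6 replicate 2, and all but that of Dnajb4 also without DMSO replicate 1 (adjusted p up to 0.199 for Phgdh). With the macrophage covariate Slc7a11 (adjusted p = 0.00685) and Slc40a1 (0.0422) were called and the other 4 were not.

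Of 19 measured genes of the Bcl2 family and survival, 2 were called higher and 1 lower, against 2.38% and 1.98% of all genes. These calls were among 9 members that protect from death, and they went both ways. Bcl2 stood at 10.12 and 9.83 with DMSO and at 10.62 and 10.69 with 79-6, its fresh level being 10.65 and 10.70. Bcl2l1, which encodes Bcl-xL, stood at 9.20 and 9.32 against 8.64 and 8.70, between DMSO and fresh cells (8.17 and 8.10). Birc3 rose by 0.38, and none of 10 pro-death members was called by limma. Calls of Bcl2 and Bcl2l1 were lost without DMSO replicate 2 or 79-6 replicate 2 (adjusted p up to 0.11 and 0.0938) and with the macrophage covariate, that of Bcl2l1 also without DMSO replicate 1, and that of Birc3 in each fit without 1 array and with that covariate.

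**Figure D5:**
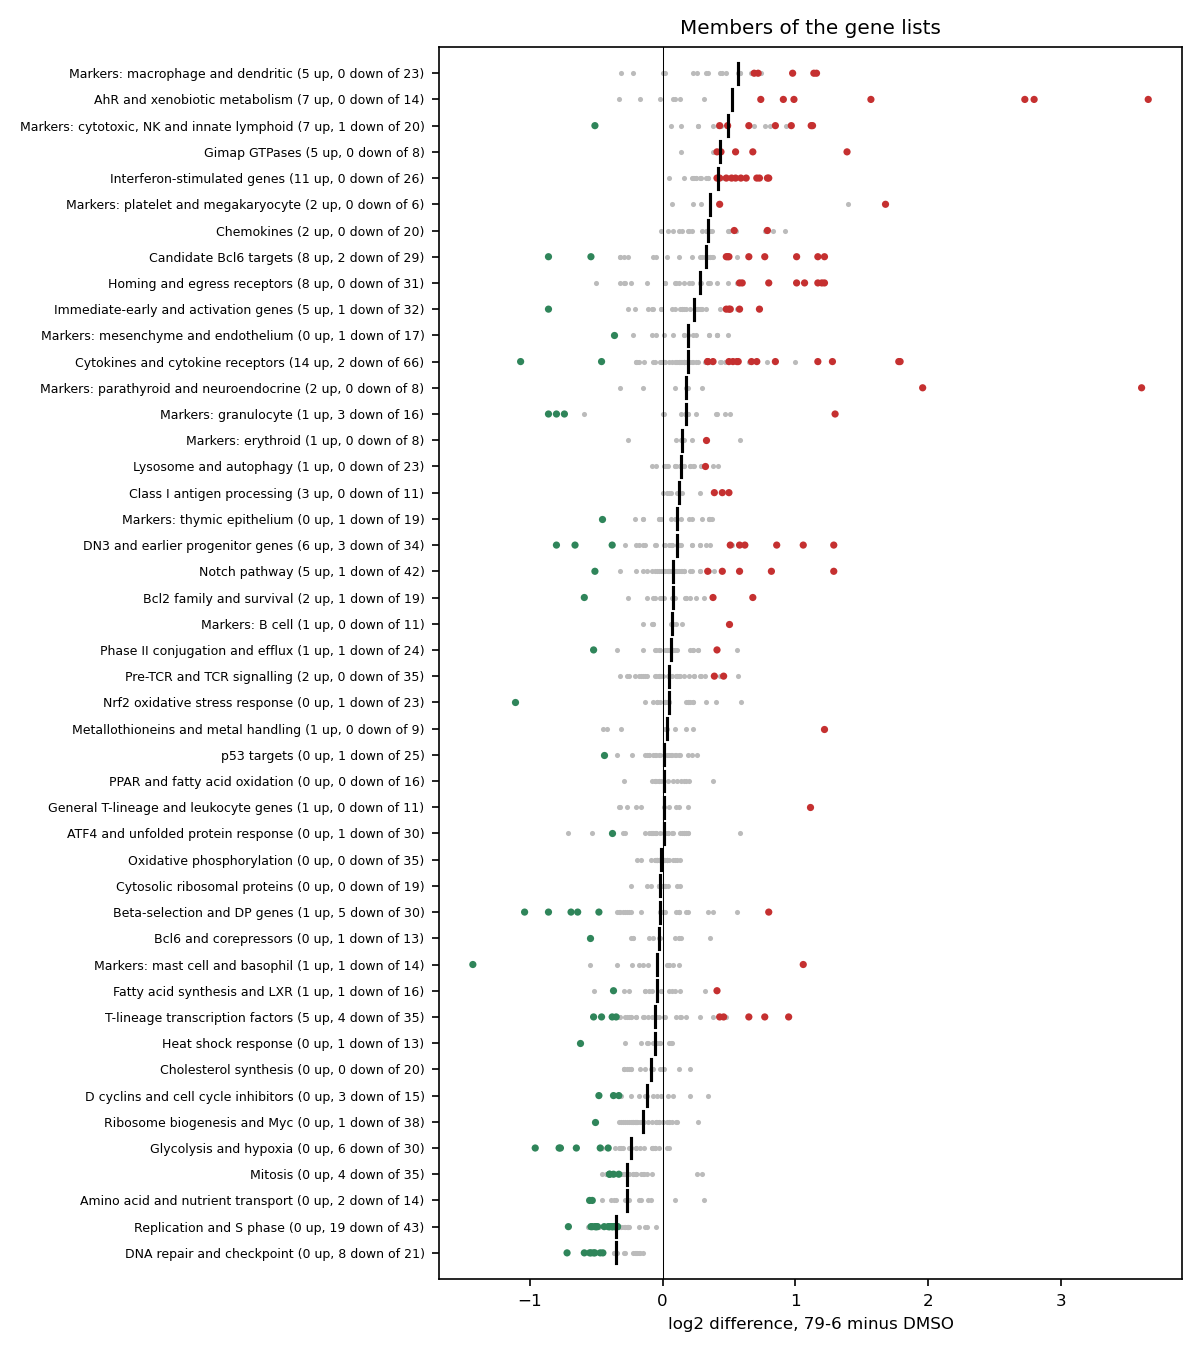
Log2 differences, 79-6 minus DMSO, of the members of 46 gene lists, ordered by median (black bar); each point is a gene, red or green where called higher or lower and grey where not. AhR targets reach 3.66, the points of replication and of repair genes all lie below 0, and those of interferon-stimulated genes all lie above 0.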

How the data were processed

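RNA of Thy1.2+ cells was hybridised to 6 one-colour whole-transcript arrays, 2 per group. The values are intensities that the authors made with RMA in the R package oligo, per the submitters' processing notes (versions not given); they were deposited on the linear scale, from 8.75 to 25316. The design had assumed log2 values, so log2 was taken here before each test. Of 34760 probe sets the platform annotation gave 1 symbol to 21640; Entrez identifiers of 21553 matched RefSeq and changed 0 symbols. The brightest probe set per gene over the 6 arrays was kept (954 genes had several), which left 19937. The fit was lmFit and eBayes of limma 3.58.1 in R 4.3.3, with 1 mean per group, 3 residual and 4.24 prior degrees of freedom, and Benjamini-Hochberg adjustment over all genes; the script was tested on simulated data. Arrays give no depth in counts, and their number limits the precision.

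The genes named are the 20 largest called differences in each direction without overlap between the groups, then members of 46 gene lists (972 of 1059 entries measured, 72 in several lists), with called ones first. The arrays, lists and tests were chosen with earlier results of these data known, so counts of lists describe and do not test them. The macrophage marker median as a covariate was added after the data were seen. Alternatives were the scaling between arrays, an offset of 16, a filter on dim genes, the probe sets kept, the arrays fitted, the prior, the replicate block and each array left out. Promoters were matched by symbol for 15613 of the genes tested, and 271 of 300 miRNA genes had a RefSeq entry.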

Additional observations from a re-analysis of the deposited data

Results flagged for a closer look

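Probe sets without a single gene symbol, 13120 of 34760, are in no comparison above. In a fit of every probe set 17 of these (0.13%) passed the threshold, 7 higher and 10 lower with 79-6, with log2 differences from -1.6 to 1.53, and 13 of the 17 differed at least 2-fold. In the same fit 88 of all probe sets (0.253%) were called. Which transcripts they read is not known here.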

How the results depend on the processing

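No named gene reversed its direction under the alternatives in which named genes were followed, but which direction held more calls did change. Named genes were not followed in the fit of every probe set. Against 869 called genes (475 higher, 394 lower; 81 at least 2-fold, 68 higher and 13 lower), the 4 stimulated arrays alone gave 225 lower, trend and robust settings 1723 (811 higher, 912 lower), an offset of 16 gave 626 higher and 633 lower, and a filter on dim genes 609 higher and 618 lower. Without 79-6 replicate 1, granulocyte markers went from 1 higher and 3 lower to 3 and 1, and the D cyclin list from 0 higher and 3 lower to 1 and 0. The macrophage covariate, added after the data were seen, gave 120 (91 higher, 29 lower; 52 at least 2-fold, 40 higher). Testing every probe set gave 88 (60 higher, 28 lower; 54 at least 2-fold, 36 higher, 18 lower). Leaving out 1 array gave 93 to 661 called, 70 to 406 higher and 18 to 323 lower; at least 2-fold 47 to 90, 39 to 76 higher and 8 to 19 lower. Arrays set to the same median (947), quantile normalization (940) and the mean of a gene's probe sets (878) stayed near 869. With the replicate block 774 were called, 666 of them among the 869; deviations of same-numbered arrays correlated at -0.074, so the numbers are not shown to pair the arrays. Of 236 named genes 43 were called in each fit without 1 array, 196 with the block and 65 with the covariate. With 2 arrays a group, depth cannot be given, and small differences of dim genes may go undetected.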

Other observations

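Groups of genes that the lists above do not hold were picked after their values were seen, so their counts describe and test nothing. Across all genes 2.38% were called higher and 1.98% lower, and 55.2% were above DMSO. Clade B serpins, which inhibit proteases inside cells, had 5 of 24 members called higher (limma): Serpinb10, Serpinb2, Serpinb8 (0.94), Serpinb6b (0.83) and Serpinb9 (0.46), an inhibitor of granzyme B. Enzymes of the kynurenine pathway, which breaks down tryptophan, had 3 of 9 called higher: Kynu (1.17), Kmo (1.02) and Haao (0.45). Leukotriene and prostaglandin genes had 5 of 16 called higher: Alox5, the prostaglandin D synthase Hpgds (0.92), the receptor Cysltr2 (0.88), Hpgd (0.70) and Ltc4s (0.66). Without DMSO replicate 1, DMSO replicate 2, 79-6 replicate 1 and 79-6 replicate 2, in that order, 2, 2, 3 and 3 of the serpins, 0, 0, 2 and 0 of the kynurenine genes and 1, 1, 3 and 3 of the leukotriene and prostaglandin genes were called. With the macrophage covariate it was 2, 1 and 1 for these 3 groups.

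Surface receptor families of innate cells, and apart from them the Slfn family, also had called members. Killer cell lectin-like receptors were called higher in 8 of 22 cases, and in 0, 0, 5 and 0 without the same 4 arrays in that order. The paired receptors Pilr were called in 3 of 3 cases, and in 1, 0, 1 and 1 without those arrays. Clec4 lectins were called in 3 of 11, and in 1, 1, 3 and 2. With the macrophage covariate 1, 2 and 1 of these 3 families were called higher, and 1 Clec4 gene lower. In the Slfn family 3 of 10 were called higher and 1 lower; without the same arrays it was 1, 1, 2 and 1 higher and 0, 0, 1 and 0 lower, and with the covariate 1 higher.

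Centriole and centrosome genes were below DMSO in 28 of 28 cases, with a median of -0.32 and 10 called lower, among them Ccdc18 (-1.04), Alms1 (-0.83), Stil (-0.74), Tube1 (-0.70) and Ccp110 (-0.68). Without DMSO replicate 1, DMSO replicate 2, 79-6 replicate 1 and 79-6 replicate 2, 4, 2, 8 and 3 were called lower, and 4 with the macrophage covariate. Centromere proteins were below DMSO in 21 of 21 cases, with 6 called lower (15 at an unadjusted p under 0.05), 0, 0, 5 and 1 without the same arrays, 3 without either fresh array, and 0 under that covariate. Of 300 miRNA genes Mir103-1 (0.38) was called higher and Mir181a-1, Mir181b-1, Mir505 (-0.68), Mir93 (-0.49) and Mir687 (-0.49) lower; without the same arrays 0, 0, 4 and 0 were called higher and 1, 1, 5 and 2 lower, and with the covariate 0 higher and 3 lower.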
